A study of Saccharomyces cerevisiae with 11 samples.

Results

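Yeast held for 9 days in a retentostat was compared with yeast in the slowly growing chemostat from which such cultures are started. The comparison rests on 5 of the 11 arrays of the study, 2 labelled as retentostat after 9 days and 3 labelled as chemostat at time 0, and they were chosen by these labels alone. All arrays carry RNA of the haploid, prototrophic Saccharomyces cerevisiae strain CEN.PK113-7D, of genotype MATa, SUC2 and MAL2-8c, grown without oxygen in synthetic medium with glucose as the limiting nutrient. In the chemostats the specific growth rate equalled the dilution rate of 0.025 per hour. At day 9 the outflow had been passed through a filter that keeps the cells in the vessel, and growth had slowed to about 0.0024 per hour. The 2 retentostat cultures were also sampled after 2, 16 and 22 days, at growth rates of 0.0084, 0.0011 and 0.00063 per hour. Retentostat arrays of different days thus share 2 cultures, whereas the 3 chemostats were separate ones.

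A retentostat feeds glucose at a constant rate to a growing mass of cells, so that the share left to each cell falls towards what it needs to stay alive, without the feed ever stopping. Yeast that slows in this way is known to make fewer ribosomes and amino acids and to build up stress protectants and storage carbohydrates. Without oxygen it cannot complete the synthesis of sterols and unsaturated fatty acids, or respire, and it lives by fermenting glucose to ethanol.

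Array intensities were floored at 12 and taken to log2, and limma was fitted to all 11 arrays. A gene is said to have risen or fallen at day 9 where its Benjamini-Hochberg adjusted p over the 5597 genes tested was under 0.05. By this rule 2127 genes (38.0% of those tested) differed, 1255 of them higher (22.4%) and 872 lower (15.6%) at day 9. A change of at least 1 on the log2 scale was reached by 443 risen genes (7.91%) and 333 fallen ones (5.95%). The median difference of all genes was 0.06. Both day 9 arrays lay above all 3 chemostat arrays for 1981 genes (35.4%) and below them for 1406 (25.1%). Of the 2127 genes called, 2121 had no overlap of arrays. A lack of overlap given below for a called gene thus adds little to its call. Because the arrays read RNA of a whole culture, less RNA per cell and fewer cells with that RNA cannot be told apart. Differences below are day 9 minus chemostat on the log2 scale, with the standard error of the fit after the ± sign.

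The 2 day 9 arrays were less alike than the arrays of any other group (r = 0.968 over genes, against 0.981 to 0.985 for the least alike arrays elsewhere). Day 9 replicate 1 had the lowest median intensity of the series, 76.1, against 84.8 in replicate 2 and 81.8 to 84.4 in the chemostats. The ratio of the actin 5′ to 3′ signal, a measure of RNA integrity, was 0.669 and 0.734 at day 9 and 0.766 to 0.796 in the chemostats. For TBP, the other control gene, this ratio was 0.489 and 0.461 at day 9 and 0.466 to 0.562 in the chemostats. The part of RNA integrity in the results was not tested. Without day 9 replicate 1 the fit called 1250 genes (814 higher, 436 lower), and without replicate 2 it called 2227 (1121 higher, 1106 lower). When each of the 5 arrays was left out in turn, 976 genes (628 higher, 348 lower) kept their call in every fit. The markers of the labelled mating type were present: the summed intensity of 6 MATa genes was 16312, 15255 and 20143 in the chemostats and 32238 and 28661 at day 9. Most of each sum came from MFA1 and MFA2, which read 7541 and 6757 in chemostat replicate 1.

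**Figure D1:**
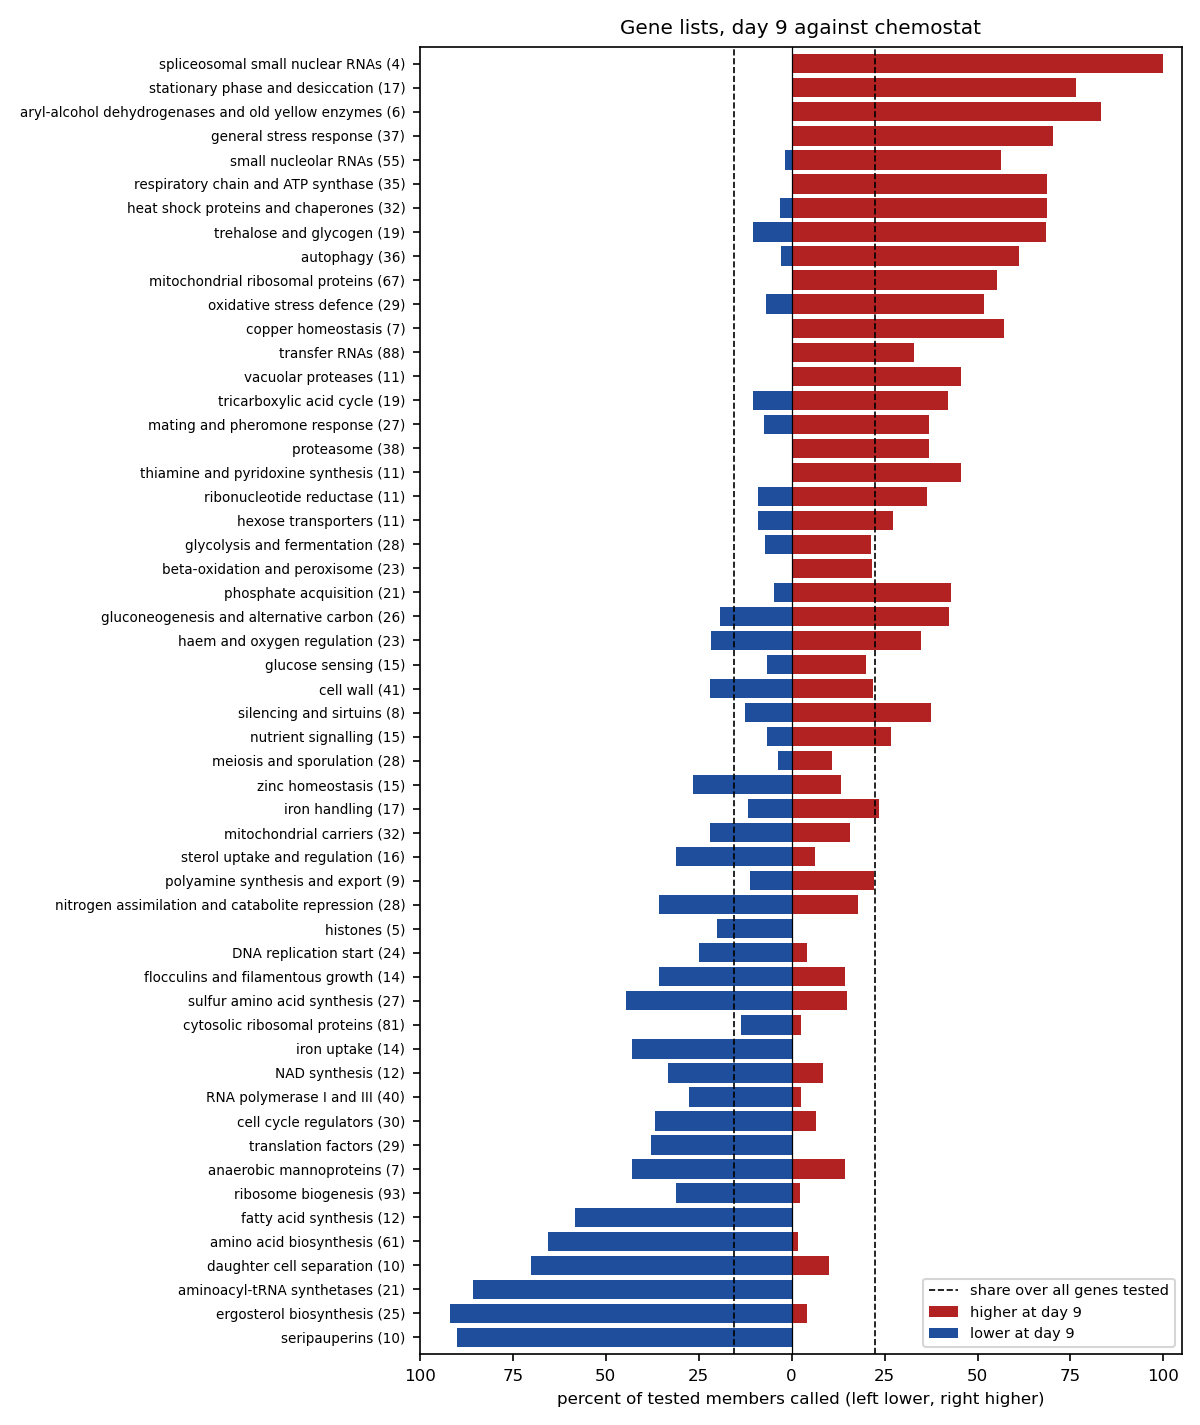
Share of the tested members of 54 gene lists that were called at day 9 against the chemostat, in percent: higher to the right and lower to the left, with the number tested in brackets and the lists ordered by their median log2 difference. Dashed lines mark the shares over all genes, 22.4% higher and 15.6% lower; seripauperins, ergosterol synthesis and aminoacyl-tRNA synthetases lie far left, and stress, storage and mitochondrial lists far right.

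Among the lists of protein-coding genes, falls were most frequent in ergosterol synthesis (23 of 25), the seripauperin wall proteins measured (9 of 10), tRNA charging (18 of 21), daughter cell separation (7 of 10) and amino acid synthesis (40 of 61). Rises covered most tested members of the lists for desiccation (13 of 17), general stress (26 of 37), heat shock (22 of 32), storage carbohydrates (13 of 19), the respiratory chain (24 of 35), autophagy (22 of 36) and mitochondrial ribosomes (37 of 67). The 15 largest rises of protein-coding genes ran from 2.51 (GRE1, a desiccation-induced hydrophilin) to 4.15 (SPG1, needed for survival in stationary phase). The 15 largest falls ran from −2.35 (FIT3, a siderophore-binding mannoprotein) to −3.84 (FIT2, of the same family). In none of these 30 genes did the arrays of the 2 groups overlap, which the rule for naming them required.

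**Figure D2:**
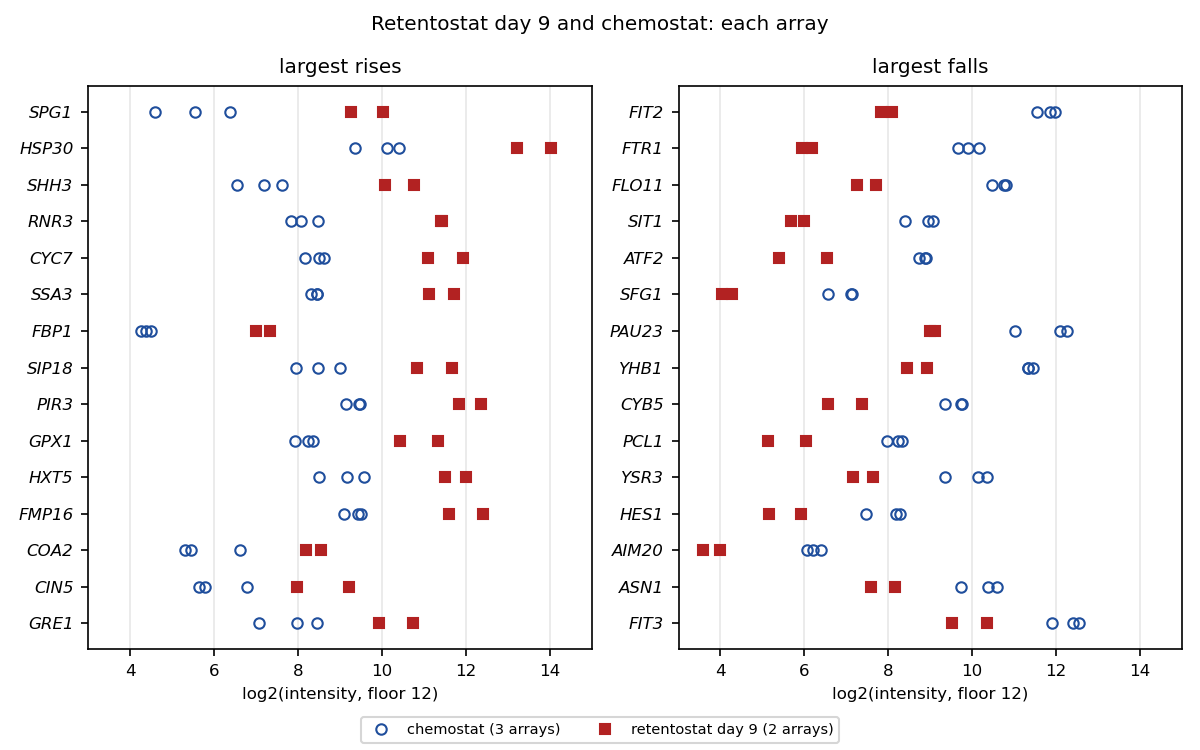
log2 intensity of each array for the 15 protein-coding genes that rose most (left) and the 15 that fell most (right) at day 9, with open circles for the 3 chemostat arrays and squares for the 2 day 9 arrays. The squares lie apart from the circles in every line, and the gap is widest for SPG1 among the rises and for FIT2 and FTR1 among the falls.

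Iron uptake held the 2 largest falls of single genes, FIT2 and FTR1, although 8 of its 14 members did not pass. Yeast takes up iron by reducing and oxidising it at the plasma membrane or by importing siderophores, and the transcription factor Aft1 switches both routes on when iron is short. The other 6 uptake genes fell and none rose, and the median of the list was −0.35. With replicate number as a block in the fit, 2 uptake genes rose. FTR1, the iron permease, read 961, 1137 and 805 in the chemostats and 61.5 and 73.1 at day 9 (−3.84 ± 0.21, adjusted p = 9.4e-06). FET3, the multicopper oxidase that works with it, read 452, 437 and 254 in the chemostats and 88.7 and 75.2 at day 9 (−2.18 ± 0.25, adjusted p = 0.0002). For both genes every day 9 array lay below every chemostat array. The siderophore transporters SIT1 and ENB1 fell too, SIT1 from 489, 534 and 337 to 51.1 and 64.0 (−2.96 ± 0.29, adjusted p = 0.00013) and ENB1 with a difference of −1.89 (adjusted p = 0.00014). Among the 3 FIT mannoproteins, which hold siderophores in the wall, FIT3 read 6016, 5385 and 3799.8 in the chemostats and 1311 and 729.7 at day 9 (−2.35 ± 0.37, adjusted p = 0.001), while FIT1 did not pass (0.52 ± 0.23, adjusted p = 0.095). The fall of FIT2 was as large as that of FTR1 (−3.84 ± 0.24, adjusted p = 1.4e-05). The other uptake genes lay on either side of 0. They were the siderophore transporters ARN1 (−0.36 ± 0.22) and ARN2 (0.77 ± 0.43), the reductases FRE1 (−0.33 ± 0.16), FRE2 (−0.23 ± 0.27), FRE3 (0.52 ± 0.19) and FRE4 (0.70 ± 0.33), and the low-affinity transporter FET4 (0.41 ± 0.17). The count of 6 was 6 or 7 with any 1 of the 5 arrays left out.

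Iron regulators and vacuolar iron genes moved in both directions. Of the iron handling list 23.5% rose and 11.8% fell, close to the 22.4% and 15.6% of all genes. AFT1 itself read 255, 270.1 and 219.6 in the chemostats and 133 and 145 at day 9 (−0.83 ± 0.16, adjusted p = 0.0027), lower in both day 9 arrays. Its paralogue AFT2 rose (0.74 ± 0.18, adjusted p = 0.01). TIS11, which marks mRNAs of iron-using proteins for decay when iron is short, fell (−0.76 ± 0.21, adjusted p = 0.015). The vacuolar iron importer CCC1 (0.62 ± 0.16) and the vacuolar exporters FTH1 (0.60 ± 0.15) and FET5 (1.14 ± 0.19) rose. Of the 17 iron handling genes 4 rose and 2 fell, and without day 9 replicate 1 there was 1 rise. The call of AFT2, CCC1 and FTH1 was lost without day 9 replicate 1 (adjusted p 0.055 to 0.098). The call of TIS11 was lost in 3 of the 5 fits that leave out 1 array (adjusted p 0.05 to 0.071).

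Of 7 copper genes tested, 4 rose and none fell, with a median of 0.58. CRS5, a copper-binding metallothionein, read 1086, 965 and 1708 in the chemostats and 6396 and 3988 at day 9 (2.06 ± 0.27, adjusted p = 0.00036). CTR3, a high-affinity copper transporter, read 144, 122 and 101 in the chemostats and 443 and 313 at day 9 (1.62 ± 0.20, adjusted p = 0.00029). In both genes all day 9 values exceeded all chemostat values. CUP2, the transcription factor that activates metallothioneins, rose by 0.93 and the transporter CTR1 by 0.58. Zinc genes were split, with 13.3% of the list higher and 26.7% lower, against 22.4% and 15.6% of all genes. ZRT1 and ZRT2, the high- and low-affinity zinc importers, differed by −0.81 and −0.68, the membrane proteins IZH3 and IZH4 by −0.84 and −0.76, and the zinc transporters MSC2 and ZRT3 by 1.29 and 0.52. These 6 passed, out of 15 zinc genes tested, and without day 9 replicate 1 only 1 rise and 1 fall did. For ZRT1, 1 of its other probe sets gave the opposite sign. Phosphate acquisition rose in 9 of 21 genes and fell in 1. PHO84, the high-affinity phosphate transporter, read 123, 126 and 129 in the chemostats and 333 and 364 at day 9 (1.46 ± 0.18, adjusted p = 0.00027). GIT1, which imports glycerophosphoinositol, read 41.3, 37.1 and 65.0 in the chemostats and 167 and 165 at day 9 (1.84 ± 0.23, adjusted p = 0.00028), and PHO89, a sodium-coupled phosphate transporter, rose by 0.91. The low-affinity transporter PHO91 fell (−0.61 ± 0.15, adjusted p = 0.0095). Of the polyphosphate polymerase complex, VTC1 and VTC3 rose (1.13 and 1.14), while VTC2 (−0.22 ± 0.17) and VTC4 (−0.13 ± 0.17) did not pass. The call of ZRT1, ZRT2, IZH3 and PHO91 was lost without day 9 replicate 1 (adjusted p 0.062 to 0.079). The call of ZRT3 was lost in 3 of the 5 fits that leave out 1 array (adjusted p 0.1 to 0.19). The call of CTR1, IZH4 and PHO89 was lost in 4 of the 5 fits that leave out 1 array (adjusted p 0.051 to 0.23).

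Sterol synthesis fell almost throughout. The pathway runs from acetyl-CoA through mevalonate to squalene, and then through oxygen-dependent steps to ergosterol. Of 25 genes tested, 23 fell, 1 rose and 1 did not pass, with a median of −1.12. ERG1, the squalene epoxidase and the first oxygen-dependent enzyme, read 2594, 2603 and 2116 in the chemostats and 450.1 and 716 at day 9 (−2.10 ± 0.22, adjusted p = 0.00014). CYB5, the cytochrome b5 that donates electrons to sterol and lipid enzymes, read 844, 870.2 and 651 in the chemostats and 94.6 and 166 at day 9 (−2.64 ± 0.27, adjusted p = 0.00013). Both day 9 arrays were below the chemostats in both genes, and replicate 1 was the lower of the pair. ERG26, which removes a methyl group from lanosterol derivatives, read 1236, 1076 and 1065 in the chemostats and 231 and 349 at day 9 (−1.98 ± 0.19, adjusted p = 0.00011). In the mevalonate part, ERG13, ERG12, MVD1 and ERG20 fell (−1.75, −1.67, −1.67 and −1.54). The isozymes of HMG-CoA reductase, the controlled step of the pathway, went opposite ways. After quantile normalization, with only the arrays compared or with replicate number as a block, HMG2 did not pass. HMG1 read 979, 940.0 and 774 in the chemostats and 284 and 342 at day 9 (−1.52 ± 0.29, adjusted p = 0.0026), and HMG2 read 657, 594 and 586 in the chemostats and 1029.8 and 786 at day 9 (0.56 ± 0.16, adjusted p = 0.021). ERG11, the lanosterol demethylase, fell (−0.93 ± 0.15, adjusted p = 0.001), and ERG25 did not pass (−0.12 ± 0.16, adjusted p = 0.57). The call of HMG2 was lost in 3 of the 5 fits that leave out 1 array (adjusted p 0.05 to 0.14).

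Of 16 genes of sterol uptake, esterification and regulation, 5 fell and 1 rose. UPC2, the activator of sterol genes when sterol is low, fell (−1.21 ± 0.23, adjusted p = 0.0027), and its paralogue ECM22 rose (0.83 ± 0.19, adjusted p = 0.0071). SUT2, a relative of the sterol uptake regulator Sut1, fell (−0.94 ± 0.17, adjusted p = 0.0023). ATF2, which acetylates sterols, read 471, 479.8 and 424 in the chemostats and 42.1 and 93.5 at day 9 (−2.87 ± 0.37, adjusted p = 0.00035). HES1, of the oxysterol-binding protein family, and YEH1, a steryl ester hydrolase, fell (−2.44 and −1.07). AUS1, the anaerobic sterol importer, did not pass (−0.45 ± 0.17, adjusted p = 0.053). Fatty acid synthesis fell in 7 of 12 genes and rose in none. The elongases ELO2 (−1.68 ± 0.25) and ELO3 (−1.43 ± 0.29) changed most, and the synthase subunits FAS1 and FAS2 differed by −0.75 and −0.55. OLE1, the oxygen-dependent desaturase, did not pass (0.22 ± 0.18, adjusted p = 0.35). The call of YEH1 was lost without day 9 replicate 1 (adjusted p 0.12). The call of FAS2 was lost in 4 of the 5 fits that leave out 1 array (adjusted p 0.11 to 0.14).

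Most seripauperins measured, small wall proteins induced without oxygen, fell. Of 24 PAU genes 14 had no probe set of their own and were not analysed here, and of the other 10, 9 fell and none rose, with a median of −1.90. Many PAU genes are near-identical, so that their values may share signal. PAU23 read 4910.5, 4399 and 2062 in the chemostats and 555 and 512 at day 9 (−2.73 ± 0.40, adjusted p = 0.0006). Chemostat 3 was the lowest of the chemostats there, and both day 9 arrays were still below it. PAU7 was the 1 member that did not pass (−0.42 ± 0.25, adjusted p = 0.2). In the other anaerobic mannoproteins, DAN4 fell (−1.75 ± 0.23, adjusted p = 0.00038) and TIR1 rose, with readings of 8668, 7078 and 10686 in the chemostats and 19326 and 13652 at day 9 (0.90 ± 0.27, adjusted p = 0.024), but did not pass after quantile normalization (0.21, adjusted p = 0.38). DAN1, also induced without oxygen, differed by −0.52 (adjusted p = 0.034). Across 23 genes of haem synthesis and oxygen regulation 8 rose and 5 fell, but these counts were 4 and 1 without day 9 replicate 1, 4 and 3 without chemostat replicate 2 and 3 and 3 without chemostat replicate 1, and 4 rose after quantile normalization. CYC7, the hypoxic isoform of cytochrome c, read 288, 362 and 393 in the chemostats and 3908 and 2182 at day 9 (3.08 ± 0.31, adjusted p = 0.00013), and both isoforms of cytochrome oxidase subunit 5 rose, COX5A by 0.92 and COX5B by 0.98. HEM13, an oxygen-using step of haem synthesis, fell (−1.11 ± 0.23, adjusted p = 0.0043), and so did AAC3, the anaerobic ADP/ATP carrier (−1.04 ± 0.24, adjusted p = 0.007). HYP2, the aerobic isoform of translation factor eIF5A, fell (−1.32 ± 0.19, adjusted p = 0.00054), whereas its hypoxic twin ANB1 did not pass (0.19 ± 0.14, adjusted p = 0.31). Their sequences are close, and how far the probe sets tell them apart was not tested. The haem-activated regulator HAP1 fell (−0.71 ± 0.23, adjusted p = 0.03), and HAP4, the activating subunit of the complex that drives respiratory genes, rose (0.64 ± 0.19, adjusted p = 0.023). YHB1, the flavohaemoglobin that detoxifies nitric oxide, read 2569, 2817 and 2555 in the chemostats and 348 and 485 at day 9 (−2.69 ± 0.30, adjusted p = 0.00019). For YHB1, 1 of its 3 other probe sets had the opposite sign. The call of HEM13 and AAC3 was lost without day 9 replicate 1 (adjusted p 0.05 to 0.078). The call of TIR1, DAN1 and HAP4 was lost in 3 of the 5 fits that leave out 1 array (adjusted p 0.06 to 0.19). The call of HAP1 was lost in 4 of the 5 fits that leave out 1 array (adjusted p 0.061 to 0.21).

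**Figure D3:**
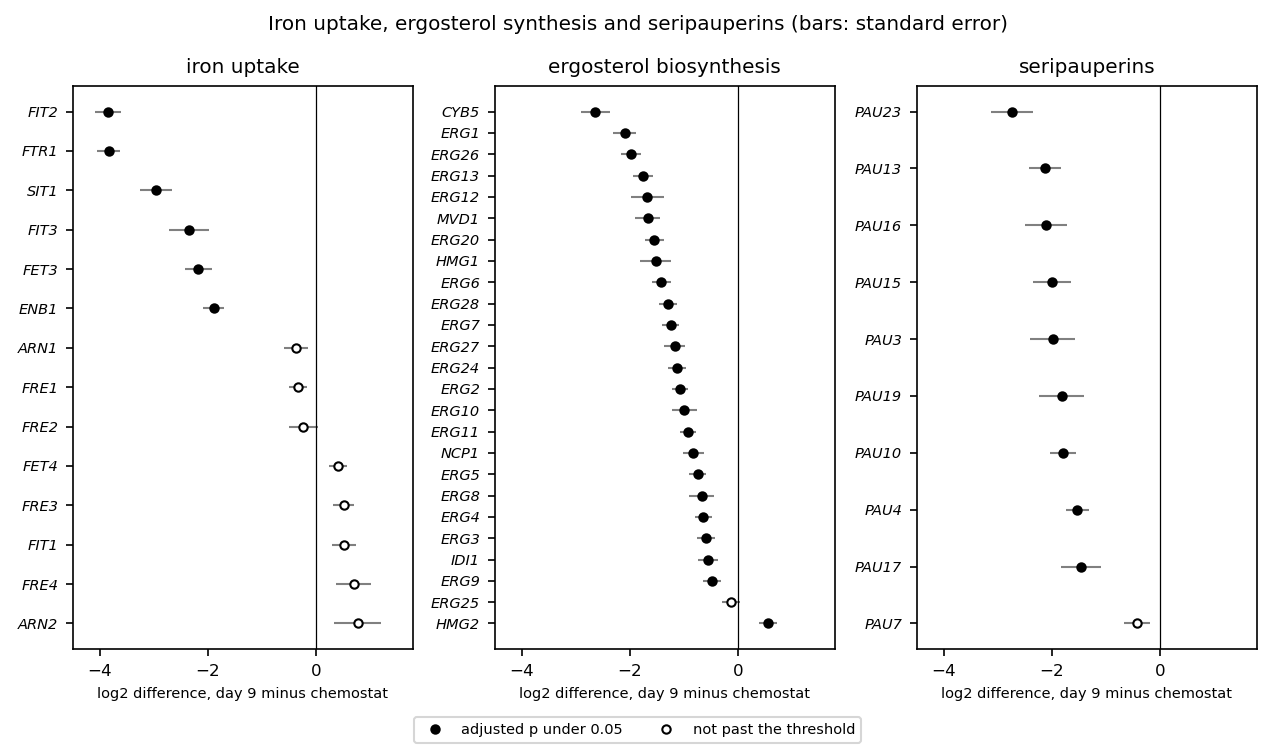
log2 difference of day 9 minus chemostat for each tested member of the iron uptake, ergosterol and seripauperin lists; bars are the standard error, filled points passed the threshold and open points did not. The 6 fallen iron genes stand apart from 8 members near 0, ergosterol genes lie below 0 except HMG2, and PAU7 is the PAU gene closest to 0.

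In carbon metabolism the genes for making glucose rose and the main hexokinase fell. FBP1, fructose-1,6-bisphosphatase of gluconeogenesis, read 19.1, 20.9 and 22.8 in the chemostats and 161 and 129 at day 9 (2.78 ± 0.17, adjusted p = 1.4e-05). PCK1, phosphoenolpyruvate carboxykinase, read 824, 806 and 831 in the chemostats and 3117 and 2245 at day 9 (1.69 ± 0.17, adjusted p = 0.00014). All day 9 values of both genes were above all chemostat values. Of the glyoxylate cycle, MLS1 (malate synthase) and MDH2 (malate dehydrogenase) rose by 1.85 and 1.47, whereas ICL1 (isocitrate lyase) did not pass (0.25 ± 0.16, adjusted p = 0.25). HXK2, the hexokinase that also acts in glucose repression, read 1489, 1530.3 and 963 in the chemostats and 155 and 437 at day 9 (−2.32 ± 0.40, adjusted p = 0.0015). The other glucose-phosphorylating enzymes HXK1 (0.37 ± 0.21) and GLK1 (0.52 ± 0.21) did not pass. Of the 11 hexose transporters measured by probe sets of their own, 3 rose (27.3%, against 22.4% of all genes) and 1 fell. HXT5, a transporter known from slow growth, read 572, 363 and 762 in the chemostats and 4108 and 2892 at day 9 (2.67 ± 0.29, adjusted p = 0.00016), and HXT2, a high-affinity transporter, read 287, 389 and 108 in the chemostats and 71.1 and 52.8 at day 9 (−1.90 ± 0.43, adjusted p = 0.0065). The near-identical high-affinity transporters HXT6 (0.59 ± 0.23) and HXT7 (0.30 ± 0.20) did not pass, and array probes may not separate them.

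In glycolysis and fermentation 6 of 28 genes rose (21.4%, against 22.4% of all genes) and 2 fell. TDH3, ENO1 and PGK1, abundant enzymes of lower glycolysis, rose by 0.77, 0.66 and 0.59. After quantile normalization these 3 did not pass, with differences of 0.02, 0.02 and 0.06. The list's median was 0.32 with the deposited scaling and −0.05 after quantile normalization, which left 2 rises. Of the glycerol pathway, GPD1 rose (1.03 ± 0.20, adjusted p = 0.0033) and GPP1 fell (−0.76 ± 0.24, adjusted p = 0.029). This list had 2 rises without day 9 replicate 1, and likewise without chemostat replicate 2, and 13 without day 9 replicate 2. Acetate and acetyl-CoA genes were split by isozyme. ALD6, the cytosolic acetaldehyde dehydrogenase, read 2109.5, 2276 and 1712 in the chemostats and 627 and 608 at day 9 (−1.71 ± 0.21, adjusted p = 0.00029), with an opposite sign in its 1 other probe set. The mitochondrial isozymes ALD4 and ALD5 fell (−1.34 and −1.77). ACS2, the acetyl-CoA synthetase of fermenting cells, read 1872, 1734 and 1508 in the chemostats and 604 and 773 at day 9 (−1.31 ± 0.17, adjusted p = 0.00038), and ACS1, the glucose-repressed isozyme, read 763, 633 and 816 in the chemostats and 1891 and 1044 at day 9 (0.94 ± 0.24, adjusted p = 0.012). CRC1, the mitochondrial carnitine carrier, rose by 1.59. The call of ENO1 was lost without chemostat replicate 2 or without day 9 replicate 1 (adjusted p 0.06 to 0.14). The call of ACS1 was lost without day 9 replicate 1 (adjusted p 0.12). The call of TDH3 and GPP1 was lost in 3 of the 5 fits that leave out 1 array (adjusted p 0.061 to 0.28). The call of PGK1 was lost in 4 of the 5 fits that leave out 1 array (adjusted p 0.054 to 0.26).

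Storage carbohydrate genes rose. Of 19 genes of trehalose and glycogen metabolism 13 rose and 2 fell, with a median of 0.79. GLG2, a glycogenin that primes glycogen chains, read 51.6, 35.6 and 51.4 in the chemostats and 248 and 168 at day 9 (2.17 ± 0.24, adjusted p = 0.00018). Enzymes of both building and breakdown were among the rises. Glycogen breakdown was represented by SGA1 (1.46), GDB1 (1.32) and GPH1 (1.14), trehalose synthesis by TPS1 (0.95) and TSL1 (0.86), and trehalose breakdown by NTH1 (0.66). The glycogen synthase GSY1 fell (−0.61 ± 0.18, adjusted p = 0.022), while its isozyme GSY2 did not pass (0.38 ± 0.15, adjusted p = 0.07). The phosphoglucomutases parted: PGM1, the minor isozyme, read 194, 154 and 165 in the chemostats and 32.9 and 43.9 at day 9 (−2.16 ± 0.25, adjusted p = 0.00023), and PGM2, the major one, rose (0.96 ± 0.30, adjusted p = 0.029). The list had 8 rises without day 9 replicate 1. The call of TPS1, TSL1 and NTH1 was lost without day 9 replicate 1 (adjusted p 0.069 to 0.11). The call of PGM2 was lost in 3 of the 5 fits that leave out 1 array (adjusted p 0.052 to 0.29). The call of GSY1 was lost in 4 of the 5 fits that leave out 1 array (adjusted p 0.056 to 0.083).

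Genes of the respiratory chain rose in cultures grown without oxygen. Of 35 nuclear-encoded subunits and dehydrogenases 24 rose and none fell, with a median of 0.83. NDE2, an external NADH dehydrogenase, read 143, 107 and 182 in the chemostats and 745 and 388 at day 9 (1.94 ± 0.27, adjusted p = 0.00053). COX13, a cytochrome oxidase subunit, read 984, 987 and 1288 in the chemostats and 2713 and 2125 at day 9 (1.16 ± 0.20, adjusted p = 0.0014). Day 9 lay above the chemostats in every array of these 2 genes. QCR8 of the cytochrome bc1 complex rose by 1.78, with an opposite sign in its 1 other probe set, and STF2, a factor of the ATP synthase, by 1.17. In the tricarboxylic acid cycle 8 of 19 genes rose and 2 fell. The 4 succinate dehydrogenase subunits, shared by the cycle and the respiratory chain, were among the rises, SDH1 with 519, 534 and 539 in the chemostats and 1205 and 1086 at day 9 (1.11 ± 0.15, adjusted p = 0.00042), and SDH2, SDH3 and SDH4 with differences of 0.98, 1.21 and 1.39. SHH3, a homologue of SDH3, rose by 3.31. CIT1 (citrate synthase) did not pass (0.01 ± 0.18, adjusted p = 0.98), and PYC2, a pyruvate carboxylase, fell (−0.71 ± 0.15, adjusted p = 0.0048). COA2, an assembly factor of cytochrome oxidase, read 44.0, 39.6 and 98.7 in the chemostats and 378 and 294 at day 9 (2.58 ± 0.33, adjusted p = 0.00033). The respiratory chain list had 14 rises and the cycle 3 without day 9 replicate 1. Without chemostat replicate 1, and likewise without replicate 2 or when only the arrays compared were fitted, the cycle had 4, and after either rescaling it had 5. The call of SDH4 was lost without day 9 replicate 1 (adjusted p 0.069).

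Mitochondrial ribosomal proteins rose in 37 of 67 genes and fell in none, with a median of 0.65. MRPS12 read 699, 674 and 732 in the chemostats and 2269 and 1449.9 at day 9 (1.37 ± 0.19, adjusted p = 0.00051), and MRPL50 and MRPL37 rose by 1.33 and 1.29. All day 9 arrays exceeded all chemostat arrays in MRPS12, and with any 1 array left out between 30 and 40 members of the list were higher. Mitochondrial carriers were split, with 5 rises and 7 falls in 32 (15.6% and 21.9%, against 22.4% and 15.6% of all genes). YIA6, the NAD carrier, rose (1.85 ± 0.23, adjusted p = 0.00027). YMC2, a carrier of the inner membrane, fell (−1.93 ± 0.19, adjusted p = 0.00012), and so did ODC2, the oxodicarboxylate carrier (−1.52 ± 0.32, adjusted p = 0.0043), and DIC1, the dicarboxylate carrier (−1.49 ± 0.17, adjusted p = 0.00021). Peroxisome and beta-oxidation genes rose in 5 of 23 (21.7%, against 22.4% of all genes) and fell in none. POT1, the thiolase that ends each round of beta-oxidation, rose (1.14 ± 0.30, adjusted p = 0.014), as did SPS19, needed for unsaturated fatty acids (1.19 ± 0.18, adjusted p = 0.00091). Without chemostat replicate 2 the peroxisome list had 2 rises, and without day 9 replicate 1 it had 3. For the carriers both numbers were 2. The call of POT1 was lost without chemostat replicate 2 or without day 9 replicate 1 (adjusted p 0.055 to 0.14).

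Stress genes rose broadly. Of 37 general stress genes, most of them targets of the factors Msn2 and Msn4, 26 rose and none fell, with a median of 0.90. Of 32 heat shock proteins and chaperones 22 rose and 1 fell, with a median of 0.82. HSP30, which restrains the plasma membrane proton pump under stress, read 1119.8, 655 and 1364 in the chemostats and 16816 and 9556 at day 9 (3.66 ± 0.31, adjusted p = 5.1e-05). SSA3, a stress-induced cytosolic Hsp70, read 349, 316 and 353 in the chemostats and 3385 and 2218 at day 9 (3.02 ± 0.21, adjusted p = 2.3e-05). Day 9 replicate 1 was the higher array in both, and neither gene overlapped with the chemostats. The constitutive Hsp70 SSA2 was the 1 member that fell, with 4642, 4393 and 3634 in the chemostats and 1858 and 2479 at day 9 (−0.97 ± 0.22, adjusted p = 0.0061). The small heat shock proteins HSP26 and HSP12 rose by 1.55 and 1.28, the Hsp110 SSE2 by 1.46 and the Hsp90 cochaperone CPR6 by 1.39. The stress targets RTC3 and NQM1 rose by 2.24 and 2.23. CTT1, the cytosolic catalase and a classic Msn2 target, did not pass (0.23 ± 0.21, adjusted p = 0.41). CIN5, a transcription factor of salt and drug tolerance, read 50.4, 55.5 and 110.3 in the chemostats and 594 and 251 at day 9 (2.52 ± 0.38, adjusted p = 0.00074). The general stress list had 17 rises without day 9 replicate 1. The call of SSA2 was lost without day 9 replicate 1 (adjusted p 0.063).

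Stationary phase and desiccation genes showed the largest rises of any list of protein-coding genes by median, 1.26, with 13 of 17 higher and none lower. The lowest member, the hydrophilin NOP6, did not pass (−1.03). After quantile normalization the median of the list was 0.945 and 1 member was lower. SPG1 read 46.9, 24.2 and 83.1 in the chemostats and 1050.2 and 621 at day 9 (4.15 ± 0.44, adjusted p = 0.00014), and SIP18, a desiccation-protecting hydrophilin, read 355, 250.1 and 514 in the chemostats and 3244 and 1845 at day 9 (2.77 ± 0.34, adjusted p = 0.00029). The chemostats spread widely in SPG1, and both day 9 arrays were far above all of them. FMP16, a mitochondrial protein induced by stress, and SPG4 rose by 2.66 and 2.24. SNZ1 (−0.19 ± 0.21) and SNO1 (−0.46 ± 0.20), vitamin B6 genes named for their stationary-phase expression, did not pass. In oxidative stress defence 15 of 29 genes rose and 2 fell. GPX1, a glutathione peroxidase, read 331, 244 and 300.2 in the chemostats and 2575 and 1385 at day 9 (2.71 ± 0.26, adjusted p = 0.00011), and SOD2, the mitochondrial superoxide dismutase, rose by 1.73. GSH2, glutathione synthetase, fell from 243, 246 and 243 to 90.2 and 110.3 (−1.29 ± 0.16, adjusted p = 0.00029). Of 6 aryl-alcohol dehydrogenases and old yellow enzymes, NADPH-dependent reductases, 5 rose. AAD10 read 95.1, 82.7 and 93.3 in the chemostats and 549 and 401 at day 9 (2.38 ± 0.22, adjusted p = 0.00011), and OYE3 rose by 1.92.

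Genes that make the building blocks of protein fell. In amino acid synthesis other than that of sulfur amino acids 40 of 61 genes fell and 1 rose, with a median of −0.83. HIS1, the first enzyme of histidine synthesis, read 1098, 1266 and 999.8 in the chemostats and 156 and 426 at day 9 (−2.12 ± 0.32, adjusted p = 0.00083), and ASN1, asparagine synthetase, fell by 2.35 on the log2 scale. HIS7, SER3, BAT1 and ARG7, of histidine, serine, branched-chain and arginine synthesis, fell (−2.05, −1.79, −1.71 and −1.61). TRP1, of tryptophan synthesis, was the 1 rise, with 466, 591 and 629.7 in the chemostats and 832 and 923 at day 9 (0.65 ± 0.19, adjusted p = 0.02). GCN4, the activator of these genes, read 6006, 5955 and 6019 in the chemostats and 5795 and 5539.8 at day 9 and did not pass (−0.08 ± 0.15, adjusted p = 0.69). Its control is known to lie mainly in translation, which arrays do not read. Sulfur amino acid genes fell in 12 of 27 and rose in 4. MET8, of sirohaem synthesis, fell (−1.68 ± 0.39, adjusted p = 0.0069), as did SAM2, S-adenosylmethionine synthetase (−1.41 ± 0.25, adjusted p = 0.0019), and SUL2, a sulfate importer (−1.31 ± 0.27, adjusted p = 0.0037), while STR3, which makes homocysteine from cystathionine, rose (1.20 ± 0.19, adjusted p = 0.001). There were 19 falls among the 61 and 5 among the 27 without day 9 replicate 1. Without chemostat replicate 1, and likewise without replicate 2, 6 of the 27 fell, and 7 did when only the arrays compared were fitted. The 4 rises became 2 without chemostat replicate 1 or day 9 replicate 2. The call of MET8 was lost without day 9 replicate 2 (adjusted p 0.055). The call of TRP1 was lost in 3 of the 5 fits that leave out 1 array (adjusted p 0.053 to 0.077).

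In nitrogen assimilation 10 of 28 genes fell and 5 rose (35.7% and 17.9%, against 15.6% and 22.4% of all genes). The glutamate dehydrogenases that fix ammonium went opposite ways. GDH1, the main isozyme, read 2748, 3088 and 2028 in the chemostats and 715 and 722 at day 9 (−1.85 ± 0.24, adjusted p = 0.00038), and GDH3, the isozyme of slow and non-fermentative growth, read 343, 339 and 329 in the chemostats and 1002 and 737 at day 9 (1.35 ± 0.20, adjusted p = 0.00067). Neither gene overlapped between the groups. GLN1, glutamine synthetase, fell (−0.94 ± 0.19, adjusted p = 0.0034), and the GABA permease UGA4 (1.37) and the proline oxidase PUT1 (1.17) rose. Among the regulators of nitrogen catabolite repression the activator GLN3 fell (−0.79 ± 0.17, adjusted p = 0.0056) and the repressor DAL80 rose (0.99 ± 0.18, adjusted p = 0.0022). The polyamine exporter TPO2 read 66.9, 82.7 and 48.8 in the chemostats and 237 and 311 at day 9 (2.07 ± 0.23, adjusted p = 0.0002), and SPE3, spermidine synthase, fell (−0.91 ± 0.19, adjusted p = 0.004). Of 12 NAD synthesis genes 4 fell, among them NPT1 of the salvage route (−1.23 ± 0.20, adjusted p = 0.001), and PNC1, the nicotinamidase, rose (0.90 ± 0.17, adjusted p = 0.003). Thiamine genes with probe sets of their own rose in 5 of 11 and fell in none, PET18 (1.03 ± 0.24) and THI21 (0.96 ± 0.17) most. The nitrogen list had 5 falls without day 9 replicate 1 and 6 without chemostat replicate 2, without a filter on low values or with only the arrays compared. Without chemostat replicate 1, and likewise without day 9 replicate 2, 3 thiamine genes rose.

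The enzymes that charge tRNAs fell in 18 of 21 cases and rose in none, with a median of −0.93. TYS1, which charges tyrosine tRNA, read 391, 459 and 437 in the chemostats and 106 and 191 at day 9 (−1.59 ± 0.22, adjusted p = 0.00053), and CRS1, for cysteine, fell by 1.56. DPS1 (−0.11 ± 0.15), ALA1 (−0.14 ± 0.27) and GRS2 (0.32 ± 0.16), for aspartate, alanine and glycine, did not pass. Day 9 replicate 1 was the lower array in TYS1. Without it 5 of the 21 fell, without chemostat replicate 2 there were 12, and when only the arrays compared were fitted, with none left out, there were 6. Of 29 translation factors 11 fell and none rose. TIF4631, the scaffold eIF4G, read 266, 298 and 292 in the chemostats and 104 and 126 at day 9 (−1.32 ± 0.17, adjusted p = 0.00035), and TEF4, a subunit of elongation factor 1B, fell by 1.47. The 11 became 6 without day 9 replicate 1 and 7 without chemostat replicate 2 or with only the arrays compared. Ribosome biogenesis factors fell in 29 of 93 and rose in 2, with a median of −0.60. NOP58, a core protein of box C/D small nucleolar ribonucleoproteins, read 1661, 1929 and 1581 in the chemostats and 255 and 637 at day 9 (−2.09 ± 0.32, adjusted p = 0.00078). Day 9 replicate 1 was far below replicate 2, and both were below the chemostats. NOP1, the methyltransferase of the same particles, EBP2 and BRX1 fell (−1.68, −1.63 and −1.51). DBP1, a helicase of translation initiation listed here by its family name, rose (1.50 ± 0.18, adjusted p = 0.00029). Without day 9 replicate 1 there were 13 falls, without replicate 2 there were 69, without chemostat replicate 2 there were 19, and with only the arrays compared there were 17. Of 40 RNA polymerase I and III subunits and factors 11 fell and 1 rose, RPA43 (−1.19 ± 0.29) and RPC19 (−1.17 ± 0.23) among the falls. There were 5 falls without day 9 replicate 1, 21 without replicate 2 and 7 without chemostat replicate 2 or with only the arrays compared. The call of NOP1 was lost without chemostat replicate 2 or without day 9 replicate 1 (adjusted p 0.053 to 0.064). The call of RPA43 was lost without day 9 replicate 1 (adjusted p 0.091).

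Of 81 cytosolic ribosomal protein genes 11 fell (13.6%, against 15.6% of all genes) and 2 rose, and 68 did not pass. Their median of −0.34 was below that of all genes. Many of these genes come as duplicated pairs. RPS26B read 787, 837 and 1025 in the chemostats and 256 and 659 at day 9 (−1.09 ± 0.31, adjusted p = 0.019), and RPL22B and RPS1B fell (−1.11 and −1.14). RPS26A read 8398, 7712 and 9564 in the chemostats and 14383 and 13025 at day 9 (0.68 ± 0.20, adjusted p = 0.023), with an opposite sign in its 1 other probe set and a difference of −0.01 after quantile normalization. Without day 9 replicate 1 no member fell, without replicate 2 there were 44 falls, and without a chemostat there were 5 or 6. Falls numbered 1 when only the arrays compared were fitted, 18 after quantile normalization and 20 with arrays scaled to 1 median. In RPS26B day 9 replicate 1 lay far below the chemostats and replicate 2 close to them. Paralogous ribosomal genes have similar sequences, and how far each probe set reads 1 copy was not tested. The call of RPS26B was lost without chemostat replicate 3 or without day 9 replicate 1 (adjusted p 0.055 to 0.16). The call of RPL22B and RPS1B was lost without day 9 replicate 1 (adjusted p 0.065 to 0.075). The call of RPS26A was lost in 3 of the 5 fits that leave out 1 array (adjusted p 0.062 to 0.12).

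Turnover genes rose more often than they fell. Of 36 autophagy genes 22 rose and 1 fell, with a median of 0.65. ATG39, a receptor for autophagy of the nucleus, read 58.3, 53.1 and 81.8 in the chemostats and 237 and 266 at day 9 (1.99 ± 0.24, adjusted p = 0.00027). ATG33, of mitochondrial autophagy, rose by 1.96, ATG36, of peroxisomal autophagy, by 1.49 and the kinase ATG1 by 1.27. ATG13, the partner of that kinase, fell (−0.54 ± 0.16, adjusted p = 0.021). The proteasome rose in 14 of 38 genes and fell in none. RPN4, the activator of proteasome genes, read 549, 509 and 679.8 in the chemostats and 1187 and 1203 at day 9 (1.06 ± 0.16, adjusted p = 0.00073), and UMP1, an assembly factor, rose by 0.85. Day 9 was above the chemostats in both arrays of ATG39 and RPN4. The main vacuolar proteases PEP4 (0.30 ± 0.20) and PRB1 (0.20 ± 0.26) did not pass, whereas carboxypeptidase Y (PRC1, 0.90 ± 0.31) and the protease inhibitors PAI3 (1.45 ± 0.20) and TFS1 (1.41 ± 0.24) rose. The proteasome count was 4 without day 9 replicate 1. It was 6 after quantile normalization and also when chemostat replicate 1 or 2 was dropped. The call of ATG13 was lost without chemostat replicate 3 or without day 9 replicate 1 (adjusted p 0.062 to 0.11).

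**Figure D4:**
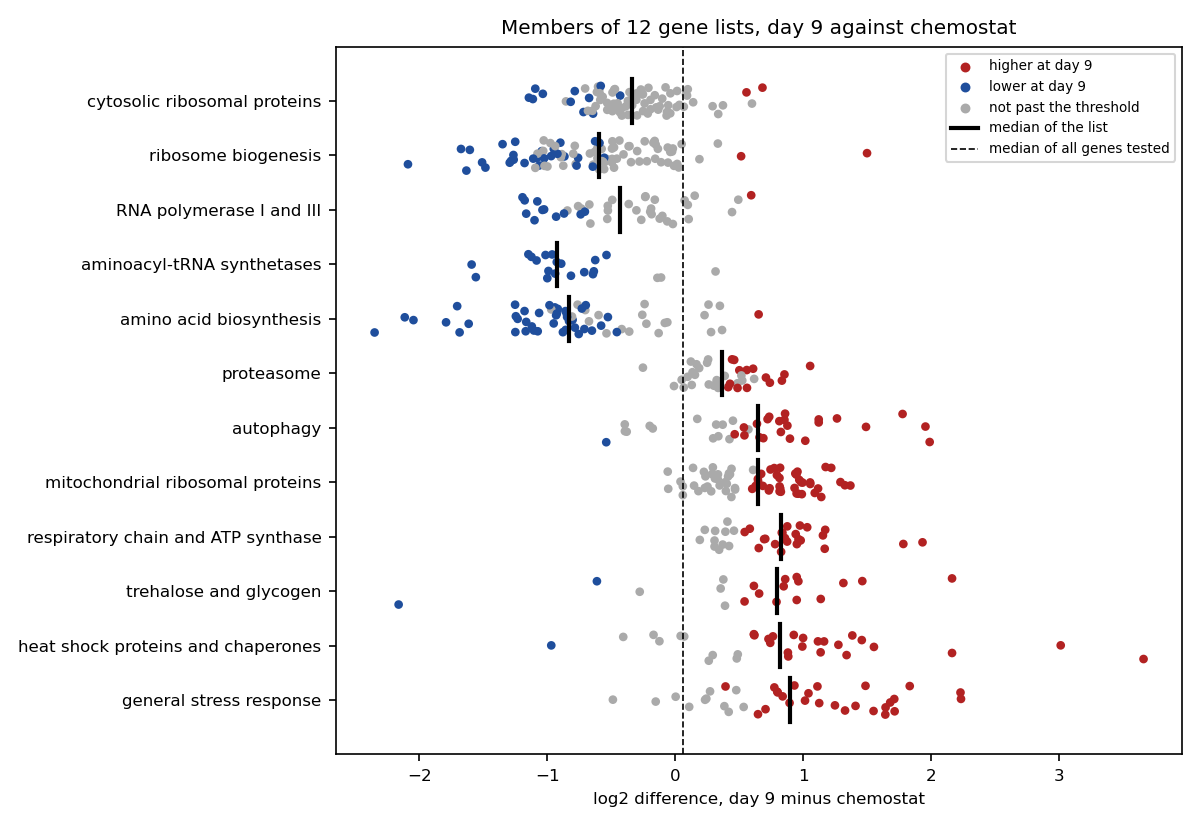
log2 difference of day 9 minus chemostat for every tested member of 12 gene lists, coloured by call, with the median of each list as a black bar and the median of all genes, 0.06, as a dashed line. Lists of protein synthesis lie to the left of the line and lists of turnover, mitochondria, storage and stress to the right, and ribosomal proteins are grouped closer to it than ribosome biogenesis.

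Of 30 cell cycle regulators 11 fell, 2 rose and 17 did not pass, with a median of −0.43. The falls were 5 of 12 genes of G1 and Start and 6 of 18 of S phase and mitosis. PCL1, a G1 cyclin, read 321, 302 and 249 in the chemostats and 35.2 and 65.5 at day 9 (−2.59 ± 0.36, adjusted p = 0.0005), and CLN1 fell by 1.38. SWI5, the activator of genes at mitotic exit, read 91.9, 112 and 148 in the chemostats and 30.8 and 34.1 at day 9 (−1.83 ± 0.24, adjusted p = 0.00036), and the mitotic cyclins CLB1 and CLB2 fell (−1.38 and −1.27). In PCL1 and SWI5 the groups did not overlap. CLB5, the S-phase cyclin, rose, with readings of 236, 192 and 240.4 in the chemostats and 358 and 359 at day 9 (0.69 ± 0.15, adjusted p = 0.005), and CDH1, which directs mitotic cyclins to destruction, rose by 0.75. The upstream G1 cyclin CLN3 (0.03 ± 0.27) and the inhibitor SIC1 (0.29 ± 0.20) did not pass. The targets of mitotic exit that part daughter from mother fell in 7 of 10 cases, AMN1 from 820.2, 794 and 975 to 294 and 233 (−1.72 ± 0.20, adjusted p = 0.00025), and EGT2, SCW11 and the chitinase CTS1 with differences of −1.48, −1.15 and −0.79. ASH1, the daughter-specific repressor of mating-type switching, rose (0.56 ± 0.20, adjusted p = 0.044). Leaving out day 9 replicate 1 left 6 fallen regulators, and there were 7 without any 1 of the chemostats, with a floor or a mean of at least 50, or with only the arrays compared. The call of CLB2 and CDH1 was lost without day 9 replicate 1 (adjusted p 0.065 to 0.11). The call of ASH1 was lost in 4 of the 5 fits that leave out 1 array (adjusted p 0.07 to 0.29).

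The genes of ribonucleotide reductase, which makes DNA precursors, moved apart. RNR1, the main large subunit, read 1096, 1184 and 1198 in the chemostats and 194 and 337 at day 9 (−2.18 ± 0.27, adjusted p = 0.00029). RNR3, the minor large subunit known from DNA damage, read 269, 228 and 356 in the chemostats and 2765 and 2731 at day 9 (3.30 ± 0.21, adjusted p = 1.5e-05). The order of the 2 groups was thus opposite for the 2 genes, with no overlap in either. RNR2, a small subunit, and HUG1, an inhibitor of the enzyme, rose by 0.96 and 1.25. Replication start genes fell in 6 of 24 and rose in 1. DBF4, the activator of the kinase that fires origins, read 71.4, 62.7 and 61.7 in the chemostats and 18.8 and 33.4 at day 9 (−1.38 ± 0.22, adjusted p = 0.0011), and CDC45, a helicase factor, fell by 1.30. The replication list had 2 falls without day 9 replicate 1 and 3 without chemostat replicate 2. Most core histones had no probe set of their own and were not analysed here. HTB2 fell (−1.33 ± 0.23, adjusted p = 0.0015) and HTB1 did not pass (−0.08 ± 0.14, adjusted p = 0.7).

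Large changes of single surface genes went in both directions. FLO11, the flocculin of adhesion and invasive growth, read 1732, 1411 and 1781 in the chemostats and 152 and 210.0 at day 9 (−3.19 ± 0.23, adjusted p = 2.9e-05). SFG1, a transcription factor of pseudohyphal growth, read 138, 140.0 and 94.0 in the chemostats and 16.4 and 19.2 at day 9 (−2.78 ± 0.38, adjusted p = 0.00048), and MSB2, the signalling mucin of the filamentous pathway, fell by 1.43. All 3 were below the chemostats in both day 9 arrays. Of the repressors of FLO11, NRG1 rose (0.80 ± 0.23, adjusted p = 0.017) and NRG2 fell (−0.74 ± 0.21, adjusted p = 0.017). Of 41 wall genes 9 rose and 9 fell (22.0% each, against 22.4% and 15.6% of all genes). PIR3, a wall protein linked to beta-glucan, read 717, 699 and 563 in the chemostats and 5249 and 3649 at day 9 (2.74 ± 0.20, adjusted p = 2.4e-05), and its relative PIR1 read 1404, 1592 and 1462 in the chemostats and 511 and 661 at day 9 (−1.35 ± 0.18, adjusted p = 0.00037). SPI1 and CCW12, anchored wall proteins, rose by 1.59 and 0.75, though CCW12 was at 0.0 after quantile normalization. Of 14 genes of glucan remodelling 7 fell, 2 rose and 5 did not pass, with a median of −0.36. The largest falls were those of UTR2, SUN4 and SIM1 (−2.24, −1.89 and −1.58). In the wall list 11 genes of chitin and glucan synthesis were tested and none passed. In limma's fit 1 of these 11 had an unadjusted p under 0.05. The whole wall list had 3 rises without day 9 replicate 1. Rises numbered 5 after quantile normalization and also when chemostat replicate 2 or 3 was dropped. The call of CCW12 was lost without chemostat replicate 2 or without day 9 replicate 1 (adjusted p 0.061 to 0.14). The call of NRG2 was lost in 3 of the 5 fits that leave out 1 array (adjusted p 0.061 to 0.16). The call of NRG1 was lost in 4 of the 5 fits that leave out 1 array (adjusted p 0.052 to 0.079).

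Mating genes rose in 10 of 27 cases and fell in 2. The alpha-factor genes, active mainly in cells of the other mating type, were among the rises. MF(ALPHA)1 read 147, 152 and 194 in the chemostats and 666 and 1206 at day 9 (2.46 ± 0.24, adjusted p = 0.00012), and MF(ALPHA)2 rose by 2.18. STE3, the receptor for a-factor, rose by 1.09. The summed intensity of these 3 alpha-type markers was 226, 215 and 263 in the chemostats and 824 and 1416 at day 9. All 3 alpha-type genes passed, and of the MATa markers 3 did. Of the a-type genes, ASG7, MFA1 and MFA2 rose (1.43, 0.87 and 0.93), MFA1 and MFA2 without passing after quantile normalization (0.24 and 0.37). The a-type genes STE2 (0.38 ± 0.17), STE6 (−0.12 ± 0.20) and BAR1 (−0.005 ± 0.25) did not pass. AGA1, the anchor of agglutinin, read 616, 628 and 545 in the chemostats and 1614 and 1831 at day 9 (1.53 ± 0.20, adjusted p = 0.00033). HO, the endonuclease of mating-type switching, fell (−1.33 ± 0.21, adjusted p = 0.00098). The 8 markers of meiosis and spores summed to 209 to 249 in the chemostats and 260 and 283 at day 9. SIR2, the silencing deacetylase of the silent mating-type loci, rose (0.71 ± 0.22, adjusted p = 0.026), SIR3, its partner there, fell (−1.01 ± 0.18, adjusted p = 0.0021), and the cytosolic sirtuin HST2 rose (1.60 ± 0.20, adjusted p = 0.00033). What part silencing has in the alpha-type signal was not tested. Among 28 meiosis and sporulation genes 3 rose (5 without day 9 replicate 2) and 1 fell. The shares of this list, 10.7% higher and 3.6% lower, were below the 22.4% and 15.6% of all genes. RIM4, a repressor of translation in meiosis, rose (1.64 ± 0.17, adjusted p = 0.00016), and SPR1, a spore glucanase, fell (−1.81 ± 0.38, adjusted p = 0.004). Of 15 genes of nutrient signalling 4 rose (26.7%, against 22.4% of all genes) and 1 fell. BCY1, the inhibitory subunit of protein kinase A, read 603, 620.2 and 813 in the chemostats and 2137 and 1359.7 at day 9 (1.34 ± 0.23, adjusted p = 0.0014), and SCH9, a growth kinase downstream of TOR, rose by 0.82. The call of MFA1 was lost in 3 of the 5 fits that leave out 1 array (adjusted p 0.083 to 0.18). The call of SIR2 was lost in 4 of the 5 fits that leave out 1 array (adjusted p 0.068 to 0.1).

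RNAs other than mRNA rose more often than they fell. Of 55 small nucleolar RNAs 31 rose and 1 fell, with a median of 0.87. Of 88 transfer RNAs 29 rose and none fell, and all 4 spliceosomal RNAs measured rose (2 without day 9 replicate 2). SNR11, a box H/ACA guide RNA, read 98.5, 117 and 126 in the chemostats and 603 and 469 at day 9 (2.23 ± 0.19, adjusted p = 5.1e-05). SNR72 was the 1 that fell, from 259, 277 and 251 to 195 and 63.0 (−1.24 ± 0.40, adjusted p = 0.03). SNR14, the U4 spliceosomal RNA, read 21.6, 25.7 and 74.6 in the chemostats and 293 and 1249.7 at day 9 (4.13 ± 0.78, adjusted p = 0.0026), and SNR19, the U1 RNA, read 21.7, 24.0 and 26.8 in the chemostats and 58.4 and 56.2 at day 9 (1.25 ± 0.18, adjusted p = 0.0007). The day 9 arrays were far apart in SNR14 and close in SNR19, and both were above all chemostats. SUF6, a glycine tRNA, read 42.6, 43.6 and 50.1 in the chemostats and 161 and 392 at day 9 (2.47 ± 0.61, adjusted p = 0.0099), and RDN25-1, of the large ribosomal RNA, read 42.1, 70.3 and 75.7 in the chemostats and 829.9 and 278 at day 9 (2.98 ± 0.68, adjusted p = 0.0066), with day 9 replicate 1 the higher array. The labelling assay starts from poly(A) tails, which the mature forms of these RNAs mostly lack, so that the values may not follow their amounts, and this was not tested. The risen tRNAs numbered 13 without day 9 replicate 2, 12 among genes with a mean of at least 50 and 9 with a floor of 50. With that floor 15 small nucleolar and 2 spliceosomal RNAs rose. The call of RDN25-1 was lost without day 9 replicate 1 (adjusted p 0.088). The call of SUF6 was lost without day 9 replicate 2 (adjusted p 0.088). The call of SNR72 was lost in 4 of the 5 fits that leave out 1 array (adjusted p 0.055 to 0.29).

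Some genes crossed the floor of 12. A gene at the floor on every array of 1 group can only read higher in the other. The direction of these changes was therefore fixed by the choice of genes. On single arrays 4.6%, 4.5% and 4.4% of genes were at the floor in the chemostats, and 3.5% and 3.1% at day 9. Among those at the floor in all 3 chemostats 28 rose, YBR200W-A to 39.6 and 30.6 at day 9, which is at least 2.9-fold (0.00024 as adjusted p). The tRNA genes YNCJ0011W and YNCB0015W reached 24.6 and 43.6 and 29.7 and 32.6, at least 2.73-fold and 2.59-fold. Among genes at the floor in both day 9 arrays 4 fell. TOS2, a protein of the bud site, had read 35.0, 44.8 and 47.4, at least 3.5-fold more, and CTR9, of the Paf1 transcription complex, 37.4, 25.5 and 35.1, at least 2.69-fold more. The others, KRS1, the lysyl-tRNA synthetase, and DAL7, a malate synthase of allantoin breakdown, had read 20.2, 29.7 and 15.7 and 15.3, 21.6 and 24.0 in the chemostats, close to the floor. The call of CTR9 was lost without day 9 replicate 1 (adjusted p 0.069). The call of KRS1 and DAL7 was lost in 4 of the 5 fits that leave out 1 array (adjusted p 0.054 to 0.13).

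Set against day 2 of the same cultures, day 9 differed in 325 genes (5.81% of those tested), 199 higher (3.56%) and 126 lower (2.25%). This comparison uses the same day 9 arrays as the one above, so that the 2 are not independent. The iron genes named above still read high at day 2. FIT2 read 3386 and 3419 there and 273 and 226 at day 9 (−3.78 ± 0.27, adjusted p = 6.5e-05), and FTR1 read 573 and 848 and then 61.5 and 73.1 (−3.38 ± 0.23, adjusted p = 6.5e-05). ARN1, which did not pass against the chemostat, fell against day 2 (−1.21 ± 0.24, adjusted p = 0.019), and 7 of the 14 iron uptake genes were lower. Ergosterol genes were lower in 15 of 25 cases, CYB5 with 524 and 743 at day 2 (−2.31 ± 0.29, adjusted p = 0.0046), and ATF2 fell as well (−2.10 ± 0.41, adjusted p = 0.018). By contrast FLO11 already read 159.5 and 189 at day 2 and did not pass between the 2 days (0.04 ± 0.26, adjusted p = 0.94). Rises against day 2 were led by SPG1 (2.76 ± 0.48, adjusted p = 0.013), GRE1 (2.29 ± 0.41, adjusted p = 0.014) and TPO2 (2.18 ± 0.26, adjusted p = 0.0036), and 11 of 67 mitochondrial ribosomal proteins and 16 of 55 small nucleolar RNAs were higher. Which direction prevailed depended on single arrays. The calls were 26 higher and 41 lower without day 2 replicate 1, and 45 higher and 16 lower without day 2 replicate 2. They were 41 higher and 57 lower without day 9 replicate 1, and 459 higher and 615 lower without its partner. With 1 array left out, the ergosterol count ran from 4 to 15, the mitochondrial ribosomal count from 0 to 12 and the small nucleolar count from 7 to 18. Fits without 1 array left ARN1 and ATF2 uncalled in 3 of 4 cases and SPG1 and GRE1 in 2 of 4 (adjusted p 0.066 to 0.11), and FIT2, FTR1, CYB5 and TPO2 called in all 4. No gene passed when only these 4 arrays were fitted, where 902 had an unadjusted p under 0.05 in limma.

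**Figure D5:**
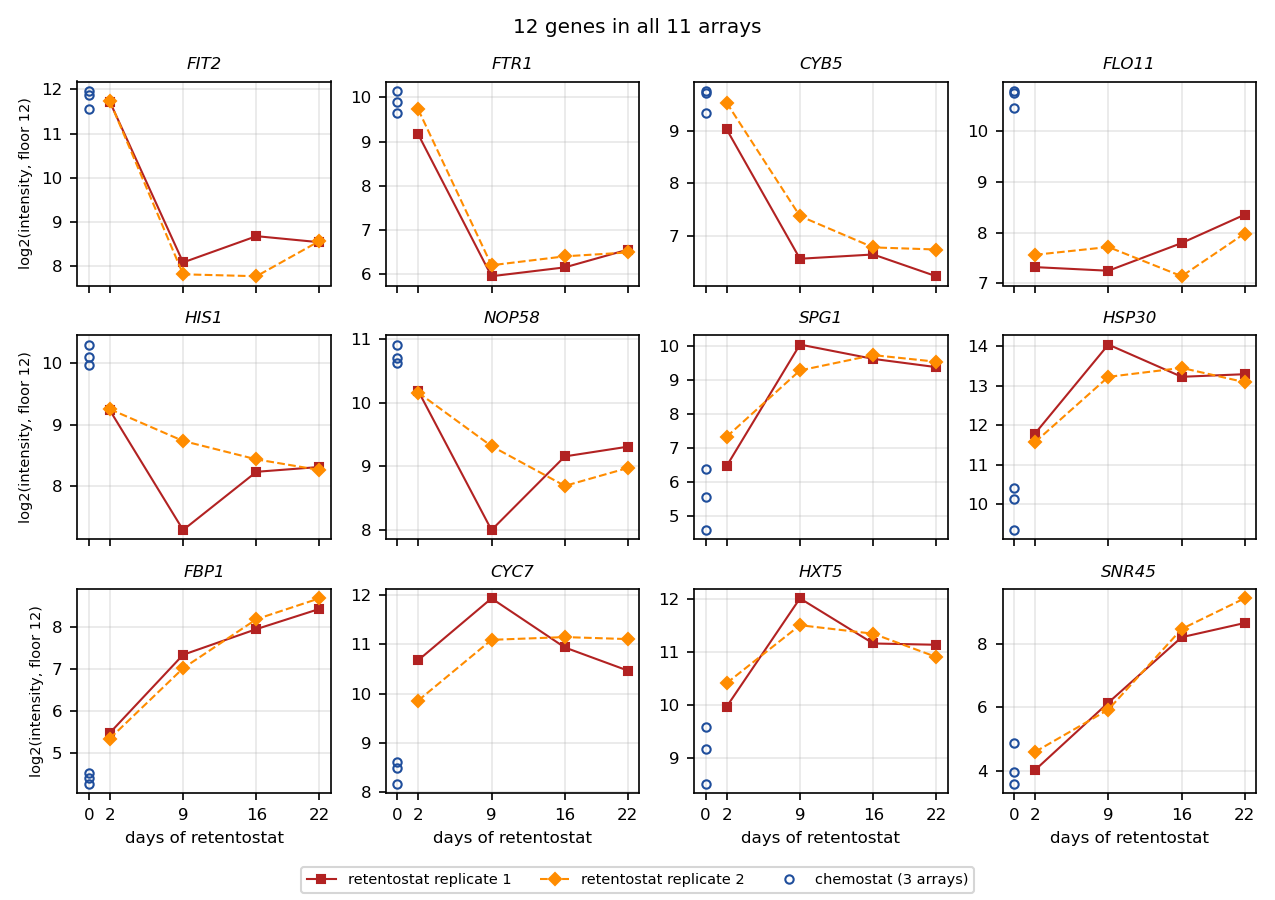
log2 intensity of 12 genes in all 11 arrays against days of retentostat, with open circles at 0 for the 3 chemostats and a line for each of the 2 retentostat cultures. FIT2, FTR1 and CYB5 drop between days 2 and 9, FLO11 is low from day 2, HIS1 and NOP58 are lowest in replicate 1 at day 9, and SNR45 reads highest at day 22.

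Days 16 and 22 together differed from day 9 in 77 genes (1.38%), 67 higher (1.20%) and 10 lower (0.179%). All genes shifted by a median of 0.12 in this comparison, and the differences below are relative to that shift, while the p-values test them before it is removed. The day 9 arrays are again shared. The rises were led by small nucleolar RNAs, of which 18 of 55 were higher. SNR45, at 70.7 and 60.7 on day 9, read 295, 354, 403 and 690.3 on the 4 later arrays (2.54 ± 0.33, adjusted p = 0.0046), and SNR71 rose by 2.16. The actin 5′ to 3′ ratio, given above as a measure of RNA integrity, was 0.736 and 0.472 on day 16 and 0.571 and 0.341 on day 22, against 0.669 and 0.734 on day 9. The TBP ratio was 0.563 and 0.568 on day 16 and 0.537 and 0.476 on day 22. On day 9 it had been 0.489 and 0.461. Ratios named from here on are those of actin. SNR45 was highest on the array with the lowest ratio, and the part of RNA integrity in these rises was not tested. In a fit without both later arrays of replicate 2, which held the lowest ratios, an alternative chosen after seeing the data, 4 genes passed, 1 of them a small nucleolar RNA. None of the 8 genes named for this comparison passed there, with SNR45 at 2.31 (adjusted p = 0.19). NOP8, a 60S ribosome assembly factor that had fallen from 50.7, 59.5 and 51.6 to 19.1 and 23.3, read 51.7, 64.1, 81.9 and 89.3 later (1.61 ± 0.24, adjusted p = 0.0069). FAA1, an acyl-CoA synthetase, and the low-affinity hexose transporter HXT1 rose by 1.73 and 1.71. Falls included IZH4, at 655 and 432 on day 9 and 228, 329.5, 122 and 192 later (−1.49 ± 0.24, adjusted p = 0.022), OLE1 (−0.91 ± 0.17, adjusted p = 0.049) and PAU7 (−1.24 ± 0.23, adjusted p = 0.048). Of the 14 iron uptake genes none passed in either direction after day 9, and 3 had an unadjusted p under 0.05 in limma's fit. Without day 9 replicate 2 the count was 458, and without 1 of the 4 later arrays it lay between 18 and 39. With 1 array left out the small nucleolar count ran from 7 to 18. Fits without 1 of the 6 arrays left SNR71 and NOP8 uncalled in 2 cases, HXT1 in 3, IZH4 in 4 and OLE1 and PAU7 in 5 (adjusted p 0.054 to 0.23). OLE1 did not pass in limma with replicate number as a block either (−0.91, adjusted p = 0.071), but kept its call with culture as a random block. SNR45 and FAA1 were called in all 6.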

How the data were processed

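RNA of each culture was hybridised to an Affymetrix Yeast Genome S98 array, 1 array a sample, and groups were taken from the sample titles. The deposited values are 1 linear intensity per probe set and array, and the tool GCOS 1.2 is named in the submitters' processing notes. The 11 arrays were already scaled to a common level, since their trimmed means (2% off each end) differed by 0.0218%, and that scaling was kept. The sources used here do not give how probe signals were summarised or corrected.

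Of 9335 probe sets, 60 controls were left out, 6504 have 1 gene in the platform annotation, 328 several and 2443 none. Gene names and types come from the RefSeq table of yeast assembly R64, used for names only. For the 315 genes with several probe sets the one with the highest mean log2 value was used. Of 5656 genes, 59 were at or below the floor of 12 on all arrays and were dropped, which left 5597, of them 5434 protein-coding. Intensities below 12 were set to 12 and log2 was taken. limma 3.58.1 in R 4.3.3 was fitted to all 11 arrays with 1 mean for each of 5 groups (6 residual and 4.85 prior degrees of freedom), and two-sided p-values were adjusted by Benjamini-Hochberg over all genes, with a threshold of 0.05. Comparisons were day 9 against the chemostat, against day 2 and against the mean of days 16 and 22. The number of arrays limits the precision. On simulated data for day 9 minus chemostat with 5597 genes, 72.2% of changes of 1 and 96.6% of changes of 2 on the log2 scale were recovered, with 7.6 false calls of 176.4. The simulated arrays were independent, with no shared cultures and the same spread in every group. Only genes well above the floor were changed, and far fewer than were called here. These rates may therefore not hold for the real arrays, of which the day 9 pair was the least alike.

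Retentostat replicate numbers mark the culture, per the labels, since duplicate cultures were sampled on 4 days. The deviations of same-numbered arrays from their group means correlated at 0.173 for days 2 and 9, 0.0656 for days 9 and 16, 0.124 for days 9 and 22 and 0.394 for days 16 and 22. Whether a chemostat and a retentostat of the same number share a culture is not stated in the labels, and they were not treated as pairs.

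Genes named are the 15 largest rises and falls without overlap, no more than 6 risen and 6 fallen members from each of 54 lists, all members of the shortest lists the results turn on, up to 5 other RNAs each way, up to 4 genes at the floor of each group, and the 8 largest changes each way against day 2 and the later days. Some that the rule names are given only by their list's count. The members and lists were chosen with earlier results of these data known. Lists are described by counts and medians and were given no test. Alternatives tried were other scaling, floors and filters, the mean of all probe sets, protein-coding genes alone, the compared arrays alone, a trended and robust variance, culture or replicate number as a block, and leaving out each array. Genes without a probe set of their own were not analysed here.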

Additional observations from a re-analysis of the deposited data

Results flagged for a closer look

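Some probe sets outside the gene comparisons also differed at day 9, those with no gene less often than genes did. In a limma fit to the probe sets with no gene or several genes, 274 of the 1938 tested that have no gene in the annotation passed the threshold with both day 9 arrays above every chemostat array, and 121 passed below every chemostat array. Their median difference was 0.14 on the log2 scale. Of the 317 tested that match several genes, 38 passed above and 65 below, with a median of −0.19. Among the 5597 genes 1255 (22.4%) passed higher and 872 (15.6%) lower, and 2121 of these calls had no overlap. Probe sets with no gene had smaller shares both ways. Those with several genes had a smaller share above and a larger one below.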

How the results depend on the processing

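The number of genes called at day 9 against the chemostat stayed within 1.5 times of 2127 under the 12 alternatives that kept all arrays compared (1694 to 2166), and ran from 1250 without day 9 replicate 1 to 2227 without day 9 replicate 2 when 1 array was left out. After quantile normalization 1076 genes were higher and 1013 lower. Against day 2 the count was 325, it was 0 when only the arrays compared were fitted and 229 to 485 under the other 11 alternatives, and it ran from 61 to 1074 with 1 array left out. For the later days the count of 77 was 34 after quantile normalization, 43 with arrays scaled to 1 median, 16 with no floor other than 1, 49 for genes with a mean of at least 50, 44 without a filter, 36 for protein-coding genes only and 4 with only the arrays compared. It ran from 18 to 458 with 1 array left out. Leaving out both later arrays of replicate 2, an alternative chosen after seeing the data, gave 4. Arrays scaled to 1 median gave 31 higher and 12 lower there, against 67 and 10. The median of all genes moved from 0.12 to −0.06 with that scaling and to −0.01 after quantile normalization.

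With the replicate block the counts were 2092, 417 and 86. In the comparison with the chemostat, where same-numbered arrays deviated together with r = 0.273 for number 1 and 0.0827 for number 2, the block left 11 of the 247 called genes named here uncalled, and among the genes named for the comparisons with other days it changed only the call of OLE1. Of those 247 genes, 192 kept their call under all 12 alternatives with all arrays compared and 171 also with any 1 array left out. Most losses came without day 9 replicate 1 (55 genes), without chemostat replicate 2 (31), without chemostat replicate 1 (28) and with only the arrays compared (27). Quantile normalization lost 14, and RPS26A turned from 0.68 to −0.007 there. The causes were not tested. The mean of all probe sets ended the calls of FAS1, FAS2, FLO10, RPS26A and ZRT1. With a floor of 50 the genes near the background lost their differences, CLB2 at −0.11 and SNR19 at 0.20, since both groups then sit close to the floor. The day 9 group holds 2 arrays, and without either the other was taken to vary like the arrays of other groups.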

Other observations

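Of 15 glucose sensing genes tested, HXK2 fell and 3 rose: SIP1 (0.44 ± 0.14, adjusted p = 0.034) and SIP2 (0.91 ± 0.26, adjusted p = 0.017), alternative beta subunits of the Snf1 kinase, and MIG3 (0.87 ± 0.26, adjusted p = 0.023), a relative of the glucose repressor Mig1. The kinase gene SNF1 (−0.27 ± 0.19), the repressor MIG1 (0.19 ± 0.16) and the sensors SNF3 (0.39 ± 0.17) and RGT2 (−0.40 ± 0.19) did not pass. The share of the list that rose was 20.0%, against 22.4% of all genes. No member rose without chemostat replicate 1 or without day 9 replicate 1.

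Of 14 flocculins and filamentous growth genes 5 fell and 2 rose (35.7% and 14.3%, against 15.6% and 22.4% of all genes). FLO10, a flocculin related to FLO11, rose (0.85 ± 0.20, adjusted p = 0.0078), while the transcription factors STE12 (−0.62 ± 0.19, adjusted p = 0.029) and PHD1 (−0.54 ± 0.15, adjusted p = 0.016) fell. FLO8, the activator of FLO11, did not pass (−0.54 ± 0.22, adjusted p = 0.081). YSR3, a phosphatase of sphingoid base phosphates, and AIM20, a gene of little known function, fell at day 9 (−2.56 and −2.44). With 1 of the 5 arrays left out, SIP1 was uncalled in all 5 fits, MIG3 and STE12 in 3, SIP2 in 2 and PHD1 in 1.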
